A study of Homo sapiens with 14 samples.

Results

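The SETD1 complexes are the COMPASS-type enzymes that place trimethylation on lysine 4 of histone H3 (H3K4me3). The RNAs of 9 subunits were followed here: the catalytic subunits SETD1A and SETD1B, the shared core WDR5, RBBP5, ASH2L and DPY30, and the SETD1-associated CXXC1, WDR82 and HCFC1. The subunits were chosen by symbol, for their place in the complex, from the 23106 gene symbols counted in each library. All 9 passed the filter on low counts in every fit, with 1171 to 42383 reads per subunit and library. Polyadenylated RNA had been sequenced from PC3, a cell line from a prostate carcinoma, and HCT116, a cell line from a colorectal carcinoma. Cells were grown in normoxia (21% O2) or in hypoxia (0.5% O2) for 16 h, as 4 biological replicates of each PC3 condition and 3 of each HCT116 condition. No gene was deleted and no drug was given in these 14 libraries. Each line stands for a single tumour, and the line cannot be told apart from its medium, library preparation or sequencing run.

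H3K4me3 marks the promoters of active genes. SETD1A and SETD1B are alternative methyltransferases, and each is active only when bound to the WDR5, RBBP5, ASH2L and DPY30 core, which it shares with the MLL (KMT2) methyltransferases. CXXC1 (CFP1) binds unmethylated CpG dinucleotides and brings the complex to CpG-rich promoters, WDR82 binds the initiating form of RNA polymerase II, and HCFC1 links the enzymes to DNA-bound transcription factors.

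The libraries held 71228454 to 150630928 counted reads, and levels are given as CPM, the reads of a gene scaled to the effective size of its library. At this depth, 3 reads corresponded to between 0.0201 and 0.0447 CPM, so every subunit lay far above the limit of counting. The hypoxia label was checked with 8 known targets of hypoxia-inducible factor (HIF), all of which rose in both lines, including NDRG1 by 2.87 (SE 0.217) on the log2 scale in PC3 and 2.78 (SE 0.141) in HCT116. As a check of the lines, 7 colon epithelial markers summed to 17.5 to 21.8 CPM in HCT116 and to at most 0.456 CPM in PC3. CDX2 alone made up 16.2 to 20.9 CPM of the HCT116 sum and had no reads in any PC3 library. Among the other colon markers, CDX1 had no reads in either line, CDH17, VIL1 and LGALS4 had at most 8 reads in any library, and GPA33 averaged 0.107 CPM in normoxic HCT116 and 0.147 CPM in normoxic PC3. KRT20 averaged 1.18 CPM in normoxic HCT116 and 0.185 CPM in normoxic PC3. The 7 prostate markers summed to between 101 and 130 CPM in PC3 and to at most 19.4 CPM in HCT116. Of these, 3 were above 1 CPM in every PC3 library and 2 in every HCT116 library. In normoxia, 3 were tested between the lines: 2 were lower in HCT116 and 1 was higher, beside 42.4% and 38.9% of all genes tested. In hypoxia all 3 tested were lower in HCT116, beside 41.8% of all genes tested. The prostate markers KLK2, KLK3 and FOLH1 were at or under 3 reads in every PC3 library.

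The starting points of the genes are shown first, because CXXC1 and WDR5 differed most between the lines in normoxia and WDR82 rose in hypoxia in HCT116. The call of WDR82 did not hold with any single HCT116 library left out, as given below. RefSeq (GRCh38.p14) gave windows of 250 bases upstream of a transcription start for 5 of the 9 subunits, SETD1A, CXXC1, WDR5, RBBP5 and WDR82, and each window matched a single place in GRCh37. Windows were not listed for SETD1B, ASH2L, DPY30 and HCFC1. The stretches below overlap no exon of the GENCODE annotation. They are written 5′ to 3′ on the strand of the gene, and capitals mark ACGTG or GCGTG, the core letters bound by HIF, read on either strand.
WDR82, chr3:52312666-52312915, minus strand: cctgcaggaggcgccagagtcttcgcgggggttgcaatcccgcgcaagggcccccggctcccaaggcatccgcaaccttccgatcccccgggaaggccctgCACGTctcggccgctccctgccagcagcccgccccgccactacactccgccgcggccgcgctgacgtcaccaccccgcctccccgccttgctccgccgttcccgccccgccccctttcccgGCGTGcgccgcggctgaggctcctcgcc
WDR5, chr9:137000965-137001203, plus strand: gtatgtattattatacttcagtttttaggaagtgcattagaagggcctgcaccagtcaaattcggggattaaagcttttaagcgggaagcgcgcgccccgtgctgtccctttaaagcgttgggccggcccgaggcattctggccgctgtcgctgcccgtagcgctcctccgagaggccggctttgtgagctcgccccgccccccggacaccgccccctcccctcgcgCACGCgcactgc
CXXC1, chr18:47814210-47814312, minus strand: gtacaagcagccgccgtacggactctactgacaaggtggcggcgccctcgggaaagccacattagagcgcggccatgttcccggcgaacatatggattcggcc
The WDR82 and WDR5 stretches lie within the span of their genes in that annotation, and the CXXC1 stretch begins at the base next to its gene. The WDR82 stretch is a whole window. It held 32 CpG dinucleotides, against a median of 11 over the 35116 windows of that length, and 90.5% of the windows held fewer. Its matches lay 149 bases (ACGTG, opposite strand) and 28 bases (GCGTG) upstream of the start. The WDR5 window, the third of 4 listed for that gene, held 23 CpG and a single GCGTG on the opposite strand 12 bases upstream, and it is shown as the longer of the WDR5 stretches from windows with a motif. The fourth WDR5 window held 39 CpG, more than 97.3% of the windows, and ACGTG on both strands, 135 and 136 bases upstream, and the remaining WDR5 windows held neither motif. The CXXC1 window also held 23 CpG, with a GCGTG 20 bases upstream, in the exonic part not shown. The windows of SETD1A (23 CpG) and RBBP5 (12 CpG) held neither motif. Either motif was present in 43.2% of all windows, so a match is a description of the letters only.

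In hypoxia, SETD1B was the only subunit past the threshold in both lines, and it fell in both. WDR82, CXXC1, HCFC1 and RBBP5 had log2 fold changes above 0 in both lines and WDR5 below 0, none of them past the threshold in both. In PC3, SETD1B, a catalytic subunit, stood at 38.6, 44.4, 41.1 and 42.2 CPM in normoxia and at 31.1, 32.9, 31.2 and 26.99 CPM in hypoxia. Every hypoxic library was below every normoxic library. The log2 fold change was -0.44 (SE 0.076), a fall to 0.738 of the normoxic level, with an adjusted p of 0.00821 (edgeR quasi-likelihood test, Benjamini-Hochberg over all genes tested). In a bulk culture, fewer cells of a kind and less of the RNA per cell cannot be told apart. SETD1B was the only subunit past the threshold in PC3, so 1 of 9 fell and 0 of 9 rose, against a background of 5.29% of the 14309 genes tested that fell and 6.03% that rose. With the replicate number as a block, which pairs the PC3 libraries, the count of subunits was the same, while 13.6% of the genes fell and 14.9% rose. The count of subunits at an unadjusted p under 0.05 was 2, the other being HCFC1. The fall of SETD1B kept its side of the threshold under each of the 17 alternative settings tried for PC3, with adjusted p between 2.0e-05 and 0.0386.

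**Figure D1:**
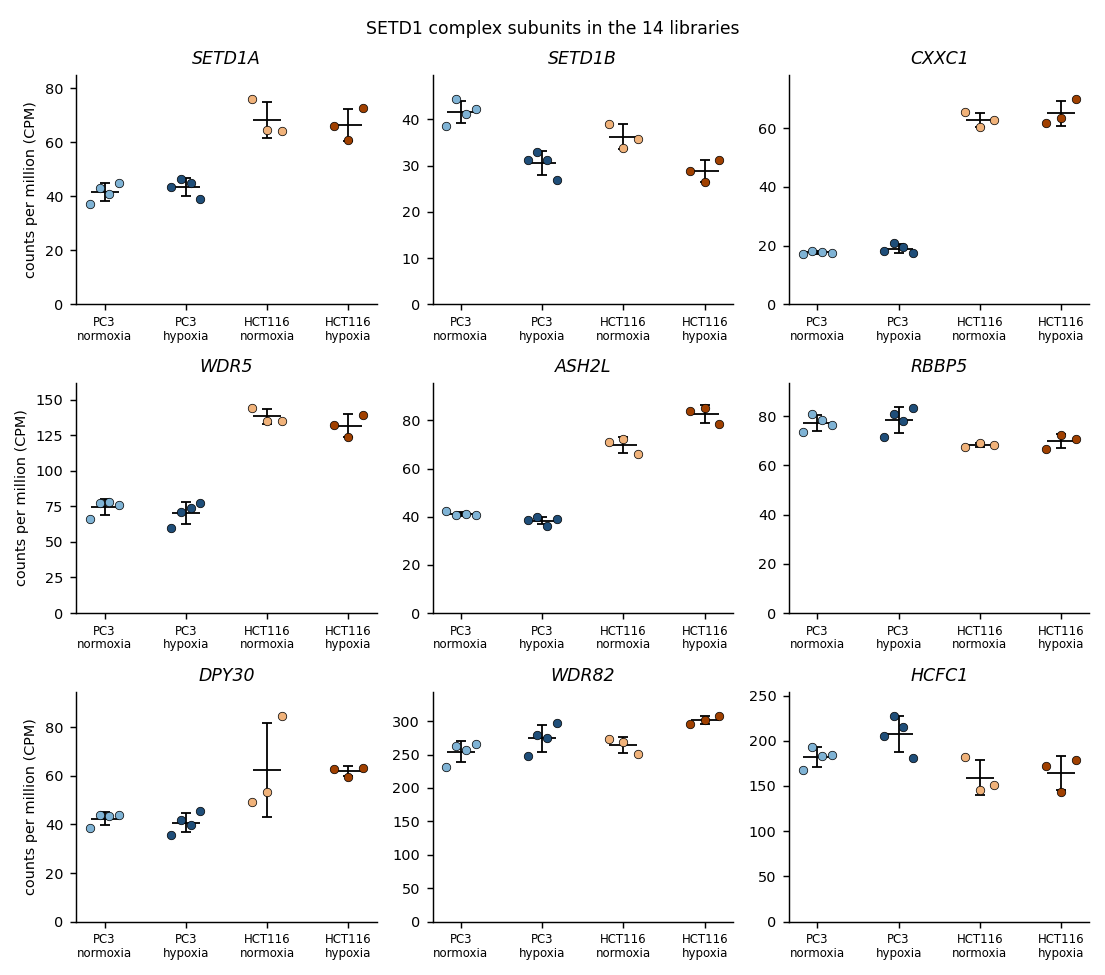
Level of each of the 9 subunits in CPM (vertical axes, each from 0) in the 4 groups (horizontal axes). Points are libraries, bars are the mean and SD of 4 (PC3) or 3 (HCT116) libraries. SETD1B is lower in all hypoxic libraries of a line than in its normoxic libraries, and ASH2L and WDR82 are higher in hypoxic HCT116. CXXC1 is the subunit with the largest ratio between the lines.

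In HCT116, SETD1B stood at 39.1, 33.8 and 35.8 CPM in normoxia and at 28.8, 26.6 and 31.3 CPM in hypoxia. The groups did not overlap, and the log2 fold change was -0.31 (SE 0.077), with an adjusted p of 0.0136 by edgeR. This call rested on single libraries, since the adjusted p was 0.0510 without normoxia replicate 1 and 0.0523 without hypoxia replicate 2. SETD1B lies at chr12:122241915-122270562 on the plus strand of GRCh37, and none of its exon bases are shared with another counted gene. The difference between its falls in the lines was 0.12 on the log2 scale (95% interval -0.14 to 0.37, adjusted p 0.711 by edgeR), so a difference was not detected.

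SETD1A, the other catalytic subunit, was not past the threshold in either line. In PC3 it stood at 37.2, 43.1, 40.9 and 45.02 CPM in normoxia and at 43.7, 46.5, 44.95 and 38.9 CPM in hypoxia. In HCT116 it stood at 76.0, 64.6 and 64.2 CPM in normoxia and at 65.9, 61.0 and 72.6 CPM in hypoxia. The normoxic and hypoxic libraries overlapped in both lines. The 95% interval of its log2 fold change ran from -0.10 to 0.25 in PC3 and from -0.20 to 0.16 in HCT116.

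The balance of the catalytic RNAs differed between conditions in both lines. Per kilobase of merged exons, SETD1A made up between 54.1% and 56.6% of the sum of SETD1A and SETD1B in the normoxic PC3 libraries and between 63.2% and 63.8% in the hypoxic ones. In HCT116 the share ran from 68.7% to 70.4% in normoxia and from 73.7% to 74.0% in hypoxia. The 4 groups did not overlap. The share is a ratio within a library, so no scaling of the libraries can move it, and it is given as a description without a test. Within hypoxic PC3 the share spanned less than a percentage point, although SETD1A itself ranged from 38.9 to 46.5 CPM across the same libraries.

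In HCT116, 2 further subunits passed the threshold, and both rose. ASH2L, a core subunit that stimulates the methyltransferase, stood at 70.98, 72.4 and 66.1 CPM in normoxia and at 84.0, 85.3 and 78.5 CPM in hypoxia. The hypoxic libraries were all higher, with a log2 fold change of 0.26 (SE 0.066) and an adjusted p of 0.0153 by edgeR. Without hypoxia replicate 2 its adjusted p was 0.0511, and under total-count scaling it was 0.107. Of the ASH2L exon bases, 5.97% are shared with STAR on the opposite strand, and the strandedness of the counting is not given in the sources used here.

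WDR82, the subunit that binds RNA polymerase II, stood at 272.7, 268.6 and 250.7 CPM in normoxic HCT116 and at 296.3, 301.3 and 307.3 CPM in hypoxic HCT116. All hypoxic libraries were above all normoxic ones, with a log2 fold change of 0.21 (SE 0.061) and an adjusted p of 0.0264 by edgeR. This call was the least secure of the 3. Leaving out any 1 of the 6 libraries raised the adjusted p above the threshold, to between 0.0539 (hypoxia replicate 1) and 0.0938 (normoxia replicate 2), as did total-count scaling (0.249) and a single fit over both lines (0.132), while the log2 fold change stayed between 0.12 and 0.22. In PC3 WDR82 stood at 230.8, 262.3, 257.3 and 265.4 CPM in normoxia and at 247.7, 279.2, 274.5 and 296.9 CPM in hypoxia, with overlap and a log2 fold change of 0.12 (SE 0.072). Counted together, 2 of 9 subunits rose in HCT116 and 1 of 9 fell, against a background of 14.6% of the 14120 genes tested that rose and 11.3% that fell.

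**Figure D2:**
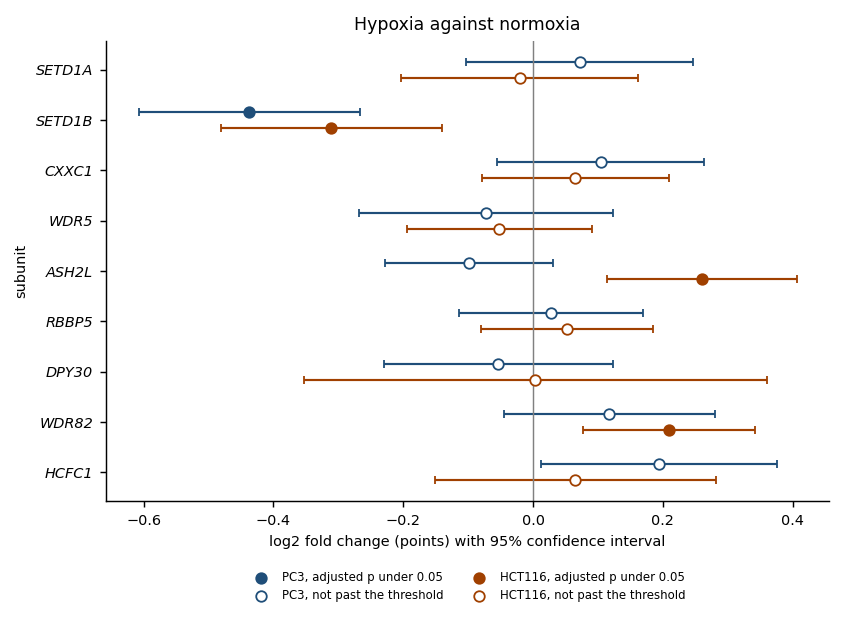
Log2 fold change of each subunit in hypoxia against normoxia (horizontal axis) with its 95% confidence interval, in PC3 (8 libraries) and HCT116 (6 libraries). Filled points passed an adjusted p of 0.05. SETD1B lies below 0 in both lines, ASH2L lies on opposite sides of 0 in the lines, and the widest interval is that of DPY30 in HCT116.

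ASH2L was also the only subunit whose response differed between the lines past the threshold. In PC3 it stood at 42.4, 40.7, 41.0 and 40.8 CPM in normoxia and at 38.6, 39.7, 36.3 and 38.8 CPM in hypoxia. All hypoxic PC3 libraries were below the normoxic ones, but the log2 fold change of -0.10 (SE 0.058) had an adjusted p of 0.300 by edgeR. The difference of the responses, HCT116 minus PC3, was 0.35 on the log2 scale (SE 0.084, adjusted p 0.0443 by edgeR over all 14 libraries). It ran from 0.31 to 0.39 under all 22 alternatives but kept its side of the threshold under only 6 of them. The call was lost without any 1 of 13 libraries, with adjusted p between 0.0528 and 0.129, the exception being hypoxic PC3 replicate 4. It was also lost without both PC3 libraries of replicate 1 (0.0617). With the replicate number as a block its adjusted p was 0.0187. The count was 1 of 9 higher in HCT116 and 0 of 9 lower, against 1.31% and 1.01% of the 15493 genes tested (4.58% and 3.85% with the block).

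The remaining subunits were not past the threshold in hypoxia in either line. HCFC1 stood at 167.1, 193.2, 182.6 and 184.5 CPM in normoxic PC3 and at 205.5, 227.1, 215.7 and 181.0 CPM in hypoxic PC3. Replicate 4 was the low hypoxic library, and without it HCFC1 passed the threshold at a log2 fold change of 0.26 with an adjusted p of 0.0243 by edgeR, against 0.19 (SE 0.081) and 0.155 with all libraries. In HCT116 it ranged from 145 to 182 CPM in normoxia and from 144 to 179 CPM in hypoxia, with overlap and a log2 fold change of 0.07 (SE 0.099). For CXXC1, the CpG-binding subunit, the log2 fold change was 0.10 (SE 0.071) in PC3 and 0.06 (SE 0.066) in HCT116. WDR5, the scaffold of the core, was at -0.07 (SE 0.087) and -0.05 (SE 0.065), and RBBP5, which joins the core to the catalytic domain, was at 0.03 (SE 0.063) and 0.05 (SE 0.060). These values do not show that the RNAs were equal: the 95% intervals of CXXC1, WDR5 and RBBP5 together reach from -0.27 to 0.26 on the log2 scale.

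DPY30, the small core subunit that binds ASH2L, hung on a single library in HCT116. It stood at 49.5, 53.2 and 84.6 CPM in normoxia and at 62.9, 59.5 and 63.4 CPM in hypoxia. Normoxia replicate 3 was above all other HCT116 libraries and the remaining normoxic libraries were below all hypoxic ones. With all libraries the log2 fold change was 0.00 (SE 0.163), and without normoxia replicate 3 it was 0.28, with an adjusted p of 0.0133 by edgeR. In GENCODE, which is not the RefSeq annotation used for counting, 50.8% of the merged exon bases of DPY30 are shared with MEMO1 on the same strand. Reads within such bases cannot be told apart. Whether the counted RefSeq genes overlap in the same way was not tested. In PC3 DPY30 ranged from 38.4 to 44.1 CPM in normoxia and from 35.8 to 45.6 CPM in hypoxia, with a log2 fold change of -0.05 (SE 0.079).

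CXXC1, WDR5, ASH2L, SETD1A and DPY30 were higher in HCT116 than in PC3 at both oxygen levels. CXXC1 stood at 17.3, 18.3, 17.9 and 17.6 CPM in normoxic PC3 and at 65.4, 60.5 and 62.6 CPM in normoxic HCT116. The groups were far apart, with a log2 ratio of 1.82 (SE 0.072), which is 3.54-fold higher in HCT116, and an adjusted p of 3.0e-12 by edgeR. In hypoxia CXXC1 ranged from 17.4 to 20.8 CPM in PC3 and from 61.8 to 69.8 CPM in HCT116, a log2 ratio of 1.77 (SE 0.072). CXXC1 lies at chr18:47808713-47814209 on the minus strand, with no exon bases shared with another counted gene.

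**Figure D3:**
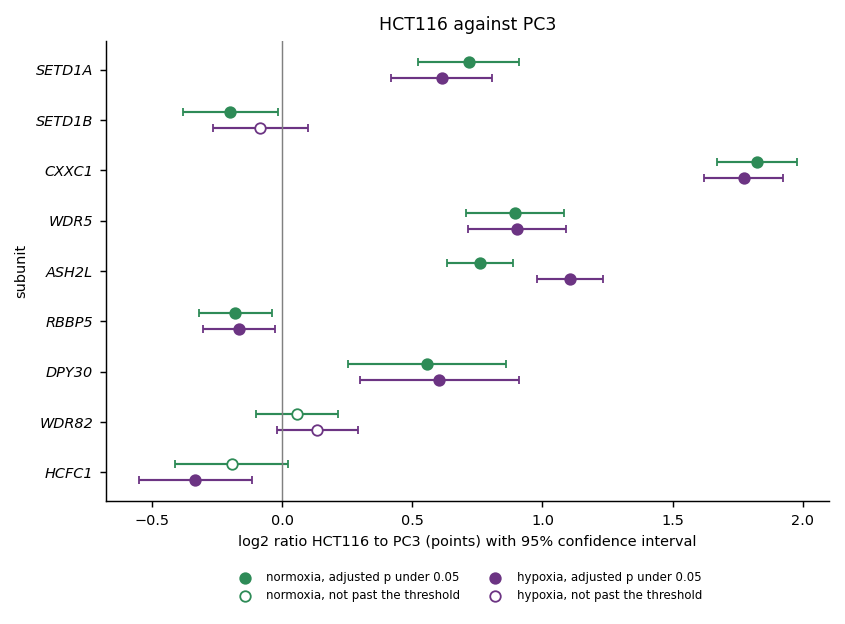
Log2 ratio of HCT116 to PC3 for each subunit (horizontal axis) with its 95% confidence interval, from a single fit of the 14 libraries, in normoxia and in hypoxia. Filled points passed an adjusted p of 0.05. CXXC1 is farthest from 0, at 1.82 in normoxia and 1.77 in hypoxia, and WDR82 is past the threshold at neither oxygen level.

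WDR5 ranged from 66.3 to 77.9 CPM in normoxic PC3 and from 135 to 144 CPM in normoxic HCT116, 1.86-fold higher, with a log2 ratio of 0.89 (SE 0.088). ASH2L was 1.69-fold higher in normoxia and 2.15-fold higher in hypoxia. SETD1A was 1.64-fold higher in normoxia and 1.53-fold higher in hypoxia. For these 3 subunits, and for CXXC1 and DPY30, no HCT116 library overlapped a PC3 library at the same oxygen level. The share of all genes without overlap is not given here, but 81.3% of those tested passed the threshold in either direction in normoxia. DPY30 was 1.47-fold higher in normoxia, and its log2 ratio of 0.56 there fell to 0.28 without HCT116 normoxia replicate 3, still with an adjusted p of 0.0136 by edgeR.

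A smaller set was lower in HCT116. RBBP5 ranged from 73.5 to 80.8 CPM in normoxic PC3 and from 67.4 to 69.1 CPM in normoxic HCT116, a log2 ratio of -0.18 (SE 0.065, adjusted p 0.0195 by edgeR). In hypoxia its log2 ratio was -0.17 (SE 0.065) with an adjusted p of 0.0288 by edgeR and overlapping libraries. RBBP5 was not past the threshold under upper-quartile scaling at either oxygen level, without PC3 normoxia replicate 2 or HCT116 normoxia replicate 1 in normoxia (0.0573 and 0.0610), or, in hypoxia, without PC3 hypoxia replicate 2 or 4 or HCT116 hypoxia replicate 1 or 3 (0.0680, 0.0745, 0.149 and 0.0712) and with the 7 hypoxic libraries alone (0.0848). SETD1B was lower in HCT116 in normoxia only by a narrow margin, at -0.20 (SE 0.085, adjusted p 0.0420 by edgeR). That call was lost without any 1 of 8 libraries, namely PC3 normoxia replicates 2, 3 and 4 and, in HCT116, normoxia replicates 2 and 3 and every hypoxia replicate, with adjusted p of up to 0.174, and also under upper-quartile scaling (-0.14, adjusted p 0.141) and without a filter on low counts (0.0583). HCFC1 was lower in hypoxic HCT116 at -0.33 (SE 0.102, adjusted p 0.00729 by edgeR, and 0.0566 without HCT116 hypoxia replicate 2). In normoxia it was at -0.19 (adjusted p 0.0931 by edgeR), and at -0.30 (0.0204) without HCT116 normoxia replicate 1. WDR82 was past the threshold at neither oxygen level, with log2 ratios of 0.06 (SE 0.074) and 0.14 (SE 0.074), although without PC3 hypoxia replicate 4 the latter was 0.20 with an adjusted p of 0.00946 by edgeR, and under upper-quartile scaling it was 0.24 with 0.00391. In all, 5 of 9 subunits were higher and 2 of 9 lower in normoxia, against 38.9% and 42.4% of the 15493 genes tested. The same counts held in hypoxia, against 39.0% and 41.8%.

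Between genes, levels were compared per kilobase of merged exons. By this length WDR82 was the most abundant subunit RNA in each group, at 44.4 ± 2.76 CPM per kilobase (SD, n = 4) in normoxic PC3 and 46.2 in normoxic HCT116. In normoxic PC3 the order below it was WDR5 (20.5), HCFC1 (20.2), RBBP5 (17.5), DPY30 (15.6), ASH2L (7.29), SETD1A (5.95), SETD1B (4.86) and CXXC1 (4.61 CPM per kilobase). WDR5 and HCFC1 overlapped in that group, as did SETD1B and CXXC1, and all other neighbours were separate. The catalytic subunits and CXXC1 thus lay lowest, with WDR82 at 9.63 times the level of CXXC1.

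In normoxic HCT116 the order below WDR82 was WDR5 (38.1), DPY30 (22.9), HCFC1 (17.7), CXXC1 (16.3), RBBP5 (15.5), ASH2L (12.3), SETD1A (9.77) and SETD1B (4.23 CPM per kilobase). DPY30 overlapped HCFC1, and HCFC1 overlapped CXXC1. CXXC1 was the lowest of the 9 in normoxic PC3 and took the fifth place in normoxic HCT116, while SETD1B was the lowest in HCT116 and, at 3.57 CPM per kilobase, in hypoxic PC3. In hypoxic HCT116 SETD1B was at 3.37 and WDR82 at 52.7 CPM per kilobase, which are 15.6-fold apart. The order depends on the length used. With the canonical transcript, the length of DPY30 fell from 2725 to 688 bases. DPY30 then stood above WDR82 in every group but hypoxic PC3, with overlapping libraries in normoxic PC3. SETD1B was last in all 4.

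**Figure D4:**
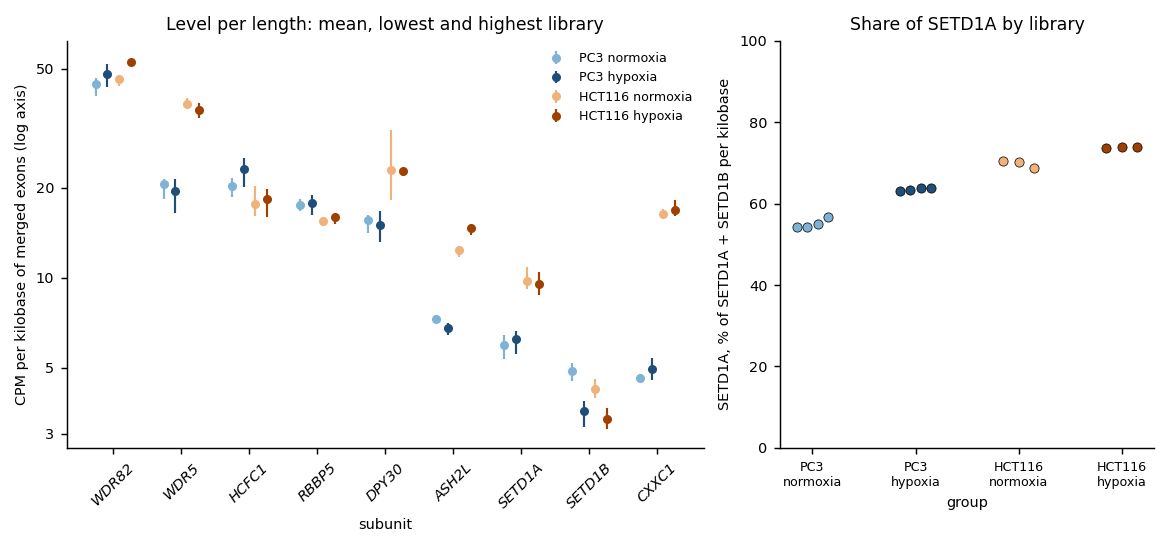
Left, level of each subunit in CPM per kilobase of merged exons (log axis), with points at the mean and lines from the lowest to the highest library of each group. Right, SETD1A as a percentage of SETD1A plus SETD1B per kilobase, a point per library. WDR82 is highest throughout, CXXC1 moves from 4.61 in normoxic PC3 to 16.3 in normoxic HCT116, and the share of SETD1A separates the 4 groups.

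Some of the subunits also varied together from library to library within a group. Over the 14 libraries, with the group means taken out, SETD1A, SETD1B, CXXC1 and HCFC1 correlated with each other at Pearson r of 0.74 to 0.95 on the log2 scale (6 pairs), in PC3 at 0.72 to 0.98 and in HCT116 at 0.64 to 0.95. WDR5, RBBP5, DPY30 and WDR82 correlated at 0.90 to 0.98 in PC3 but at -0.91 to 0.49 in HCT116. Across these sets r lay between -0.22 and 0.34 over all libraries (16 pairs), and between -0.58 and 0.96 in HCT116. ASH2L, in neither set, had r between -0.54 (DPY30) and 0.01 (WDR82) with the other subunits over all libraries. The median over all 36 pairs was 0.16, and 22 of the pairs were above 0. The sets were formed after the values had been seen, and the libraries share depth, preparation and base composition, so these are descriptions.

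Single libraries stood low or high for several subunits at a time. In normoxic PC3, replicate 1 was the lowest of the 4 libraries for 8 of the 9 subunits, all but ASH2L, for which it was the highest. In hypoxic PC3, replicate 4, the library with the fewest reads, was lowest for SETD1A, SETD1B, CXXC1 and HCFC1 and highest for WDR5, RBBP5, DPY30 and WDR82. Replicate 1 of hypoxic PC3 was lowest for the latter 4. The part of depth and RNA quality in these deviations was not tested.

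**Figure D5:**
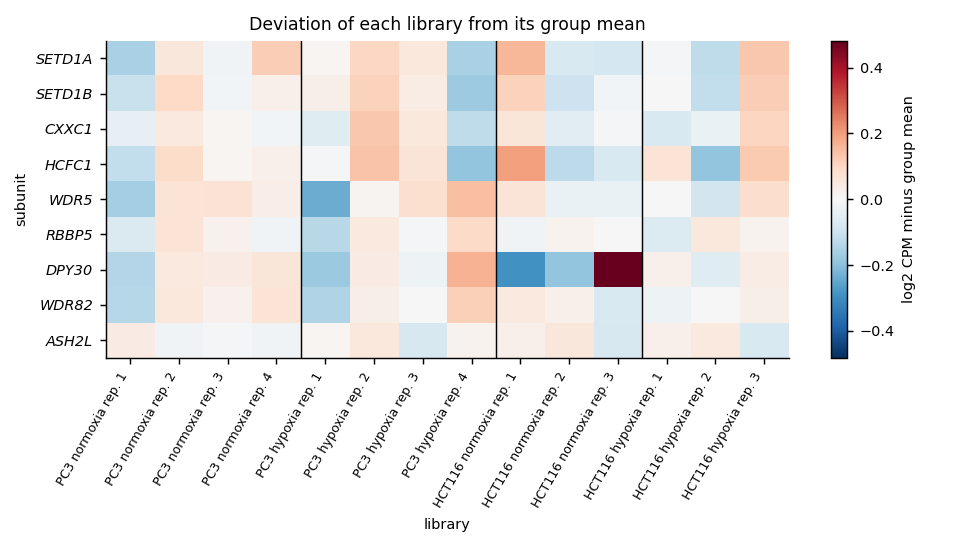
Deviation of log2 CPM from the group mean for each subunit (rows) in each library (columns, black lines between the groups), with red above and blue below the group mean. SETD1A, SETD1B, CXXC1 and HCFC1 share a colour in most columns. WDR5, RBBP5, DPY30 and WDR82 do so in most PC3 columns and in HCT116 hypoxia replicate 3, with mixed colours in the others. DPY30 stands out at 0.48 in HCT116 normoxia replicate 3.

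Compared with 8309 genes above a mean of 10 CPM in both lines, those whose within-group pattern was most like that of SETD1A were EHMT1 (r = 0.97), ZNF592 (0.97) and RAI1 (0.93). For SETD1B they were SRRT (0.98), ZNF592 (0.96) and BRPF3 (0.96), and for CXXC1 they were ADCY7 (0.93), AMOTL1 (0.93) and ZC3H4 (0.92). The median r over all genes compared was 0.03 for SETD1A, -0.01 for SETD1B and 0.03 for CXXC1. These likenesses rest on the 14 libraries with group means removed, and they describe shared library-to-library variation.

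The 4 MLL methyltransferases, which use the same WDR5, RBBP5, ASH2L and DPY30 core, all passed the threshold in HCT116. In HCT116, KMT2A rose by 0.68 (SE 0.067), KMT2D by 0.51 (SE 0.082) and KMT2C by 0.31 (SE 0.065) on the log2 scale, while KMT2B fell by 0.29 (SE 0.070), so 3 of 4 rose and 1 of 4 fell, beside 14.6% and 11.3% of all genes tested. In PC3 none of the 4 passed the threshold in edgeR's main fit. That fit does not pair the PC3 libraries, and results with the pairing are not given for these genes. The log2 fold changes were 0.24 for KMT2A, -0.11 for KMT2B, 0.53 for KMT2C (adjusted p 0.0759 by edgeR, unadjusted 0.0115) and 0.28 for KMT2D. KMT2C was the only one at an unadjusted p under 0.05. KMT2C has near-identical copies elsewhere in the genome, so its counts are uncertain, and KMT2A stood at 90.8 CPM in hypoxic PC3 replicate 4 against 164 to 179 CPM in the other hypoxic libraries. The difference of responses between the lines was not past the threshold for any of the 4 (lowest adjusted p 0.381 by edgeR). Of the RNA of the 6 methyltransferases per kilobase of merged exons, SETD1A and SETD1B together made up 58.8 ± 0.949% (SD, n = 3) in normoxic HCT116 and 52.0 ± 0.707% in hypoxic HCT116. In PC3 they made up 47.0 ± 1.43% (SD, n = 4) and 42.1 ± 4.14%, where hypoxia replicate 4, at 48.2%, lay within the range of normoxia and the other hypoxic libraries did not exceed 41.2%. With the canonical transcript as the length, the HCT116 means were 51.9% and 44.5% and the PC3 means 37.3% and 32.5%.

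The 3 demethylases listed, KDM5A, KDM5B and KDM5C, remove H3K4me3 in an oxygen-consuming reaction. All 3 rose in HCT116, where 14.6% of all genes tested rose: KDM5B by 0.63 (SE 0.121), KDM5C by 0.36 (SE 0.080) and KDM5A by 0.33 (SE 0.061) on the log2 scale. In PC3, where 6.03% of all genes tested rose, only KDM5B passed the threshold, at 0.40 (SE 0.100, adjusted p 0.0334 by edgeR). This fit, too, does not pair the PC3 libraries. KDM5A and KDM5C were at 0.21 and 0.15 there. A difference between the lines was not detected for any of the 3 (lowest adjusted p 0.465 by edgeR).

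Genes next to SETD1 in the pathway were counted by list. Of 7 subunits particular to MLL complexes, none passed the threshold in either line in edgeR's main fit. At an unadjusted p under 0.05 in that fit there was 1 (MEN1) in PC3 and 0 in HCT116. Median log2 fold changes were -0.04 in PC3 and -0.03 in HCT116, against medians of 0.00 over all genes tested. Hypoxia results for the lists of other genes, the MLL and KDM5 genes included, are given from the main fit alone, which does not pair the PC3 libraries. Of 11 genes of H2B ubiquitylation and the PAF1 complex, which act before SETD1 on transcribed chromatin, only CTR9 passed, falling by 0.24 (SE 0.070) in HCT116. There, 11.3% of all genes tested fell. Of 11 measured partners of SETD1, WDR82 or HCFC1, 1 rose in PC3, beside 6.03% of all genes tested, and 4 rose and 1 fell in HCT116, beside 14.6% and 11.3%. HCFC1R1, a regulator of HCFC1, rose by 0.62 (SE 0.111) in PC3 and by 0.60 (SE 0.068) in HCT116. In HCT116 PPP1CB, a protein phosphatase subunit, rose by 0.37 (SE 0.077) and ZC3H4, a WDR82-binding protein, by 0.37 (SE 0.076). OGT, the glycosyltransferase that modifies and cleaves HCFC1, fell by 0.31 (SE 0.078) in HCT116 and was at 0.25 (SE 0.077) in PC3, where it did not pass.

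Among 14 proteins that bind H3K4me3, 2 rose past the threshold in PC3 and 3 in HCT116, beside 6.03% and 14.6% of all genes tested. None fell past the threshold, although the log2 fold change was below 0 for 6 in PC3 (lowest -0.39) and 4 in HCT116 (lowest -0.23). ING1, a subunit of a histone deacetylase complex, rose in both, by 0.34 (SE 0.091) in PC3 and 0.29 (SE 0.065) in HCT116. PHF13 rose by 0.28 (SE 0.071) in PC3. DIDO1 rose by 0.43 (SE 0.074) and SGF29 by 0.28 (SE 0.076) in HCT116.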

How the data were processed

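The authors aligned the reads of 14 polyadenylated RNA libraries to GRCh37 with HISAT2 (2.05), removed spike-in reads and counted RefSeq genes with HTSeq (0.5.4p3, intersection-strict). They deposited raw counts per gene symbol, without normalisation. The strand setting and RefSeq release are not given in the sources used here. The MLL genes carry older symbols in the files and were matched by hand.

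The members and gene lists were chosen with earlier results of these data known. Counts were tested with edgeR 4.0.16 in R 4.3.3 (filterByExpr, TMM scaling, quasi-likelihood test, two-sided, Benjamini-Hochberg over all genes tested, threshold 0.05). Each line was fitted alone, while the difference of responses and the comparisons of the lines used all 14 libraries. SEs were taken from the F statistics, as the size of a log2 fold change over root F. Intervals are at 95%. The scripts were tested on simulated data. Replicates of a group differed by a chi-square of at least 10.6 per gene, so none was a duplicate. Floors (3 counts) cover counting error only.

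Same-numbered PC3 libraries deviated together from their condition means (r 0.67, 0.27, 0.14 and 0.28 over the genes tested), so the numbers were taken to pair the PC3 libraries. For replicate 3 the values do not settle this. Its hypoxic library correlated about as well with normoxia replicate 2 (r 0.136) as with its own number (r 0.140). Exon lengths, positions and overlaps come from GENCODE on GRCh37. Promoter windows come from RefSeq. Their bases were matched to GRCh37. All 9 members were named, with the 3 genes most like SETD1A, SETD1B and CXXC1, the MLL and KDM5 genes, NDRG1 and CA9 as the HIF targets, and at most the 4 largest changes past the threshold per other list and line. STAR and MEMO1 are named for their overlaps, and the single markers, like MEN1, were chosen after their values were seen. Other settings tried were scaling by median-of-ratios, by upper quartile or by total count, other count filters, DESeq2 1.42.0, a replicate block, joint or separate fits, other transcript lengths and each library left out.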

Additional observations from a re-analysis of the deposited data

Results flagged for a closer look

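Of 58 PC3 groups of 4 libraries examined for a library far from the others, 6 held such a library, and chance flags about 1 in 20 groups (2.9 of 58). The share of SETD1A and the total counts were among those examined and held none. In normoxic PC3 all 3 cases were replicate 1. WDR5 stood at 66.3 CPM there, against 75.9 to 77.9 CPM in the other libraries. DPY30 stood at 38.4 CPM, against 43.5 to 44.1 CPM. SGF29, a reader of H3K4me3, stood at 6.27 CPM, against 8.07 to 8.38 CPM. In hypoxic PC3 all 3 cases were replicate 4. KMT2A was at 90.8 CPM, against 164 to 179 CPM in the other libraries. PPP1CB was at 381 CPM, against 316 to 321 CPM, and PHF13 was at 46.2 CPM, against 40.9 to 41.7 CPM. The cause of these deviations was not tested.

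The hypoxic response differed between the lines for 3 of the 27 named genes, by the interaction of line and oxygen in edgeR, beside 2.32% of all genes tested. Several of the 27 were named for their large changes in hypoxia. For ASH2L the difference, HCT116 minus PC3, was 0.35 on the log2 scale, and the fits in which it did not pass the threshold are given in the report. For OGT the difference was -0.56 (SE 0.120, adjusted p 0.0238 by edgeR), with 141 to 169 CPM in normoxic and 166 to 188 CPM in hypoxic PC3 and 96.0 to 110 CPM in normoxic and 74.1 to 88.0 CPM in hypoxic HCT116. For CA9, a HIF target, the difference was 4.35, from levels of 0.108 to 0.375 CPM in normoxic and 0.536 to 0.919 CPM in hypoxic PC3 and of 0.0921 to 0.147 CPM in normoxic and 7.13 to 8.81 CPM in hypoxic HCT116.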

How the results depend on the processing

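The fall of SETD1B in PC3 kept its side of the threshold under all alternatives, and the counts of subunits past the threshold in the line comparisons stayed within 1.5 times. In PC3 the count of 1 became 2 under total-count scaling, where ASH2L also passed (-0.20, adjusted p 0.0396 by edgeR), and was 1 to 2 with a library left out. In HCT116 the count of 3 became 1 under total-count scaling and was 0 to 3 with a library left out, at 0 without hypoxia replicate 2 and 1 without normoxia replicate 1. The count of responses that differed between the lines became 0 under median-of-ratios scaling, without a filter on low counts and without both PC3 libraries of replicate 1 (chosen after seeing the data), and was 0 to 1 with a library left out. Total-count scaling moved the median of all genes to -0.10 in PC3 and -0.09 in HCT116 on the log2 scale, and the calls over all genes from 863 higher and 757 lower to 562 and 1733 in PC3 and from 2061 and 1597 to 1286 and 3146 in HCT116. Upper-quartile scaling gave 681 and 1048 in PC3. The causes were not tested.

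SETD1A shares kept their order over PC3 normoxia, PC3 hypoxia, HCT116 normoxia and HCT116 hypoxia with the longest transcript (56.97%, 65.4%, 71.4% and 75.3%) and the canonical transcript, added after seeing the data (58.8%, 67.0%, 72.9% and 76.7%).

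Signs turned only for values that were past the threshold in no main test. Under total-count scaling the log2 fold change was -0.032 for SETD1A and -0.079 for RBBP5 in PC3, -0.027 for CXXC1, -0.040 for RBBP5, -0.081 for DPY30 and -0.027 for HCFC1 in HCT116, and the normoxic line ratio of WDR82 was -0.022. Under upper-quartile scaling RBBP5 was -0.016 in PC3, DPY30 was -0.0046 in HCT116 and the hypoxic line ratio of SETD1B was 0.024. DPY30 in HCT116 was -0.0069 under median-of-ratios scaling, -0.0068 in DESeq2 and -0.011 in a single fit over both lines. For the difference of responses, WDR5 was -0.0054 under median-of-ratios scaling, -0.0053 in DESeq2 and -0.013 without both PC3 libraries of replicate 1, and RBBP5 was -0.00034 and -0.0058 under the first and last of these. With a library left out, HCT116 fold changes ran from -0.080 to 0.050 for SETD1A, from -0.15 to 0.28 for DPY30 and from -0.0097 to 0.16 for HCFC1, and differences of responses from -0.064 to 0.061 for WDR5, from -0.029 to 0.048 for RBBP5 and from -0.10 to 0.33 for DPY30.

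With the replicate number as a block, no call of a subunit changed, SETD1B having an adjusted p of 0.0036 in PC3 and 0.00945 in HCT116 by edgeR, while calls over all genes in PC3 rose to 2125 higher and 1949 lower, and over the difference of responses to 710 and 596. The HCT116 libraries share only a number (r 0.09, 0.14 and 0.04 for the same number), although each correlated best with its own. The lowest count of a subunit in any library was 1171 reads.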
